A study of Anser cygnoides with 18 samples.

Results

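The transcripts described here encode proteins that fold, glycosylate, export or degrade cargo in the endoplasmic reticulum (ER), together with the sensors of ER stress. Members were chosen by gene symbol from a list of 60, and 53 of them had a row among the 14628 protein-coding genes of the goose expression table. CALR, ERO1L, ERO1LB, SSR4, DAD1, OS9 and SELS had no row under those symbols and were not analysed here. The 53 fall into 12 chaperones and their cochaperones, 4 disulfide isomerases, 9 translocon genes, 5 oligosaccharyltransferase subunits, 9 genes of export, 9 of ER-associated degradation (ERAD) and 5 stress sensors and their transcription factors. RNA was taken from liver (L), abdominal adipose (AA) and subcutaneous adipose (SA) of 3 control geese (C1 to C3) and 3 geese under high-intake feeding (T1 to T3), which gave 18 libraries, 3 for each tissue and feeding group. All birds were Tianfu males, a hybrid meat breed, sampled at 145 days of age after a night without feed. Both groups received 1 diet, with 14.29 MJ/kg of metabolizable energy and 8.09% crude protein. Control birds ate freely, whereas high-intake birds were force fed in 2 to 4 meals a day from 126 days of age, starting with meals of 130 g that grew by 5 g a day. The comparisons ask how this secretory machinery differs between the tissues and how it answers the feeding that fattens the liver.

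Proteins bound for secretion enter the ER through the SEC61 channel, receive N-glycans from the oligosaccharyltransferase complex, and fold with the help of chaperones of the HSP70 and HSP90 families, of calnexin and of disulfide isomerases. UGGT enzymes re-glucosylate glycoproteins that are not yet folded and so send them back to calnexin. Folded cargo leaves in COPII vesicles, and cargo that fails to fold is drawn back to the cytosol and degraded by the ERAD machinery. When unfolded protein accumulates, the sensors ERN1 (IRE1), EIF2AK3 (PERK) and ATF6 start the unfolded protein response, in which XBP1 and ATF4 are the transcription factors downstream of ERN1 and EIF2AK3. The hepatocyte is a professional secretory cell that makes most plasma proteins and exports fat as lipoprotein.

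Values are FPKM (fragments scaled by transcript length and by the mapped fragments of the library), read back from a log2(FPKM + 1) scale, and the fragment counts behind them are unknown. The sum of FPKM was 387525 to 438339 in livers and 221093 to 394709 in adipose, apart from C2-SA, where it was 107522. C2-SA had the lowest value of the control SA libraries for 53 of the 53 members, so the main SA results are also given without it. The share of all genes lowest there is not given here, and 20.9% of all genes were highest there. As a share of the summed FPKM the members were at 0.5304% in C2-SA, between 0.5232% in C1-SA and 0.6041% in C3-SA. ALB was listed at 0 in 5 of the 6 livers and at 9871 FPKM in T2-L, where FGG was listed at 0 instead. These zeros can be failed estimates, and no member was listed at 0 in any library. The paper reports that C2-SA correlated less with adipose tissues than others did. It proposes that other tissue, such as skin, was mixed into it, which was not tested here. On FGB and the adipocyte markers, livers and adipose matched their labels. FGB, a fibrinogen chain of hepatocytes, was at 4313 to 12724 FPKM in the livers, and the summed level of the 5 adipocyte markers was 15.3 to 46.3 FPKM in livers and at least 1009 FPKM in adipose. The models of 12 members, among them HSPA5, UGGT1, SEC61G and DDOST, overlap another gene, and reads of overlapping genes may have been split by the counting. In bulk tissue, fewer cells of a type and less RNA per cell cannot be told apart.

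All 53 members passed the filter on low values (mean FPKM above 0.1) in every comparison, and their means over the 18 libraries ran from 1.88 FPKM for SYVN1, the ubiquitin ligase of ERAD, to 422 FPKM for SEC61G, the small gamma subunit of the channel. Next in the order of mean FPKM were SEC61B at 172, HSP90B1 (the ER-resident HSP90) at 168, PDIA3 (a disulfide isomerase that works with calnexin) at 139, SSR1 (a subunit of the translocon-associated TRAP complex) at 110.0 and RPN1 (a subunit of the oligosaccharyltransferase) at 103. Among the export genes the highest mean was 42.7 FPKM for LMAN1, the lectin that carries glycoproteins out of the ER. In ERAD it was 64.0 FPKM for EDEM1, a mannosidase-like protein that marks glycoproteins for degradation. Of the sensors and their factors, ATF4 averaged 99.3 FPKM, XBP1 34.2, ERN1 9.25, ATF6 6.10 and EIF2AK3 4.46 FPKM, so transcripts of the 3 sensors stood well below those of most chaperones. ATF4 and XBP1 are also regulated at translation and at splicing, which gene-level FPKM does not show. The models of 13 members are marked as partial, among them SYVN1, SEC61B, HSP90B1, SSR1 and XBP1. FPKM is scaled by the length of the model, so the order of these members is less certain.

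Liver held more transcript of most secretory genes than adipose, led by LMAN1. In control geese LMAN1 measured 59.0, 77.8 and 67.6 FPKM in C1-L, C2-L and C3-L against 12.6, 11.99 and 12.2 FPKM in C1-AA, C2-AA and C3-AA. Every liver stood far above every abdominal depot. The log2 difference, liver minus AA, was 2.37 (SE 0.16, limma adjusted p = 1.94e-05). HSP90B1 was at 430.2, 297 and 236 FPKM in these livers and at 74.5, 64.7 and 74.7 FPKM in AA, a log2 difference of 2.11 (SE 0.26, limma adjusted p = 0.000278). EDEM1 followed, at 114, 126 and 104 against 34.6, 23.2 and 25.9 FPKM, with a log2 difference of 2.02 (SE 0.20, limma adjusted p = 0.000107). The groups did not overlap for either gene. SEC61G and SSR1 completed the 5 largest differences, at 1.86 (SE 0.25) and 1.84 (SE 0.27) on the log2 scale.

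In control geese 33 of the 53 members passed the test between liver and AA (limma, adjusted p under 0.05), where 62.5% of all 12422 genes tested did. Of these 26 were higher in liver, against a background of 19% of all genes, and 7 were lower, against 43.5%. The median log2 difference was 0.56 over the members and -0.31 over all genes. Higher in liver were 8 of the 12 chaperones, 3 of the 4 disulfide isomerases, 4 of the 9 translocon genes, 2 of the 5 oligosaccharyltransferase subunits, 4 of the 9 export genes, 3 of the 9 ERAD genes and both transcription factors, XBP1 and ATF4. The 7 lower ones were SEC61A2, SEC24B, ATF6, VCP, EDEM2, SYVN1 and DNAJB9. With each library centred on its median, 43 members passed, 40 higher and 3 lower in liver, because centring moved the median of all genes from -0.31 to 0.18 on the log2 scale. DNAJB9, SYVN1, EDEM2 and VCP then no longer passed among the lower ones, which left SEC61A2, SEC24B and ATF6. With the goose as a block instead, SSR3 and SEC31A also passed and DERL2 no longer did.

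SEC61A2, the second gene for the pore-forming alpha subunit of the channel, had the lowest difference. It was at 4.94, 2.42 and 3.05 FPKM in the control livers and at 8.66, 13.1 and 11.999 FPKM in the control AA libraries, a log2 difference of -1.47 (SE 0.24, limma adjusted p = 0.00131). All adipose values lay above the liver values. Its paralogue SEC61A1 went the other way, with a log2 difference of 0.92 (SE 0.17, limma adjusted p = 0.0022). SEC24B, a cargo-binding subunit of the COPII coat, was at 4.34, 3.39 and 3.41 FPKM in these livers against 8.96, 8.55 and 9.67 FPKM in AA, and its paralogue SEC24A was higher in liver, with log2 differences of -1.10 (SE 0.15) for SEC24B and 0.89 (SE 0.16) for SEC24A. ATF6, the sensor that is cleaved in the Golgi to become a transcription factor, was at 3.23, 4.16 and 3.17 against 8.72, 7.94 and 7.17 FPKM, a log2 difference of -0.99 (SE 0.15, limma adjusted p = 0.000946). No liver value of SEC24B or ATF6 reached the lowest AA value.

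LMAN1 also led in the high-intake geese. Between their liver and AA, 23 members passed the test, 18 higher and 5 lower in liver, where 55.9% of all genes passed (14.3% higher and 41.7% lower). LMAN1 was at 136, 122 and 99.0 FPKM in T1-L, T2-L and T3-L and at 24.4, 23.2 and 21.1 FPKM in T1-AA, T2-AA and T3-AA, a log2 difference of 2.32 (SE 0.18, limma adjusted p = 0.000126). SEC63, a partner of the channel that recruits HSPA5, SEC23A (the GTPase-activating subunit of the COPII coat), EDEM1 and HSP90B1 came next, at 1.53, 1.50, 1.48 and 1.42 on the log2 scale. EDEM2, ATF6, DNAJC1, SEC24B and SEC61A2 were lower in liver, from -1.39 to -0.57. With centred libraries 35 members passed, 34 higher and 1 lower, and SEC61A2 then had a difference of 0.04. Without T1-AA or without T3-AA the count was 15. With the goose as a block HSPA5 also passed and UGGT1 no longer did. The scatter of the tissue differences in both feeding groups shows that most members lie near the diagonal, and that UGGT2 and ATF4 lie far below it.

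**Figure D1:**
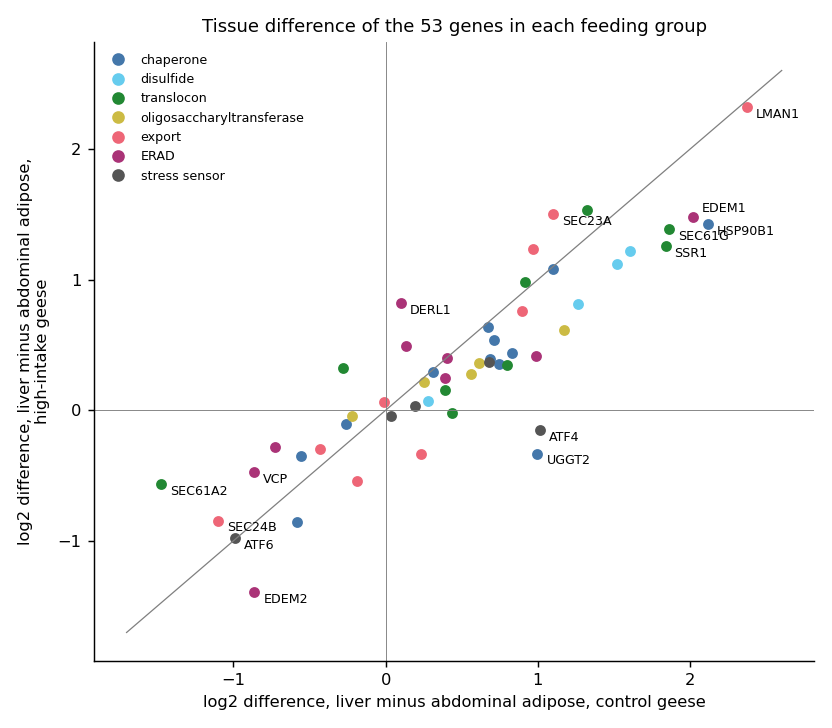
Each point is 1 of the 53 genes, coloured by role, with its log2 difference between liver and abdominal adipose in control geese on the x axis and in high-intake geese on the y axis (3 geese per group and tissue). The grey diagonal marks equal differences. LMAN1 is at the upper right with 2.37 and 2.32, whereas UGGT2 and ATF4 are at 1.00 and 1.01 in control geese and below 0 in high-intake geese.

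Against SA the same genes led. In control geese 6 members passed, all higher in liver (LMAN1, EDEM1, SEC61G, HSP90B1, PDIA3 and SSR1), where 35.6% of all genes passed, 12% higher and 23.5% lower. Without C2-SA 29 passed, 19 higher and 10 lower, and the members' median log2 difference went from 0.63 to 0.15. The median of all genes was -0.23 with C2-SA, and without it is not given here. The count was 11 without C1-SA and 2 without any 1 of the control livers. With the goose as a block 4 passed, since PDIA3 and SSR1 no longer did. In high-intake geese 25 members passed, 20 higher and 5 lower in liver (DNAJC1, EDEM2, ATF6, SEC24B and UGGT2), where 57.2% of all genes passed, 15.9% higher and 41.3% lower. With centred libraries 37 passed, 35 higher and 2 lower, and with the goose as a block 22 passed, UGGT1, UGGT2 and EDEM3 having dropped out. Between the adipose depots no member passed in either feeding group (limma), where 0.275% of all genes did in control and 0.0487% in high-intake geese. SYVN1 was the 1 member in each with an unadjusted p under 0.05, a level that 8.17% and 6.38% of all genes reached. With the goose as a block no member passed between the depots either.

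In liver, high-intake feeding moved 3 members past the threshold, of 53, while 2.19% of all 11752 genes tested passed (1.27% higher and 0.919% lower). UGGT2 fell, and DERL1 and SEC23A rose. The changes of the other members leaned upward without passing. Of the 53, 46 had a log2 change above 0, against 52.9% of all genes, and their median was 0.42 against 0.03 over all genes. At an unadjusted p under 0.05 there were 25 members, against 24.1% of all genes. Counting geese without a model, the high-intake and control livers did not overlap for 30 members that were higher (16.1% of all genes) and for 2 that were lower (15.4%). An exact permutation test of 3 geese against 3 cannot go below p = 0.1 for a single gene. Leaving out any 1 library changed the calls. None of the 3 passed without C1-L, C2-L, C3-L or T1-L, with UGGT2 at an adjusted p between 0.0571 and 0.128. Without T2-L only UGGT2 and ATF4 passed, and without T3-L UGGT2, DERL1, DDOST and STT3A did. The log2 change of UGGT2 was between -1.22 and -1.08 in these fits.

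**Figure D2:**
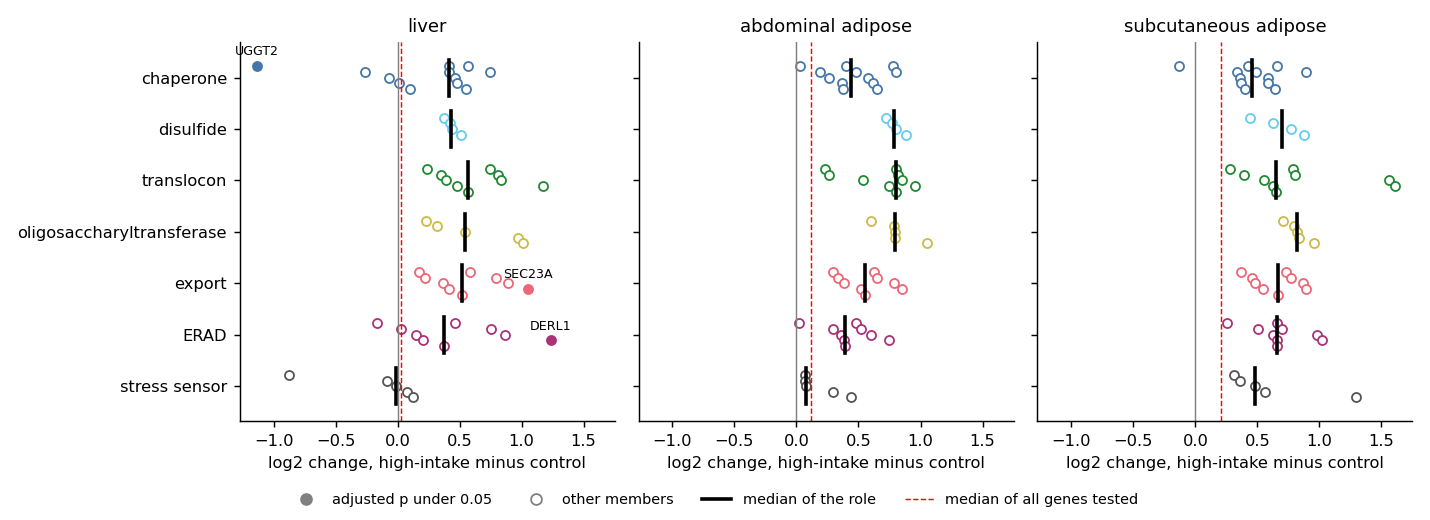
Log2 change of each of the 53 genes under high-intake feeding (x axis, high-intake minus control, 3 geese against 3) by role, in liver, abdominal adipose and subcutaneous adipose. Filled points passed an adjusted p of 0.05, black bars are the median of a role and the red dashed line is the median of all genes tested. In liver the stress sensors have a median of -0.01 and the translocon genes 0.57.

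UGGT2 is the less studied of the 2 UGGT genes, and it had the strongest evidence of change among the members. It measured 11.9, 9.75 and 11.5 FPKM in C1-L, C2-L and C3-L and 4.69, 4.54 and 4.20 FPKM in T1-L, T2-L and T3-L. The groups were well apart. The high-intake livers lay below every adipose library but C2-SA, which was at 2.80 FPKM, the others being at 4.72 to 7.45 FPKM. The means were 11.1 ± 1.16 and 4.48 ± 0.254 FPKM (SD, n = 3), and the log2 change was -1.14 (SE 0.15, limma adjusted p = 0.029). Its paralogue UGGT1 was at 18.7, 18.1 and 15.5 FPKM in control and 22.4, 23.4 and 28.4 FPKM in high-intake livers, and its log2 change of 0.48 did not pass. In the goose assembly (AnsCyg v1.0) UGGT2 spans 149255 to 244076 on the minus strand of scaffold NW_013186032.1, and its model is marked as partial. DNAJC3, a cochaperone of HSPA5, ends 36 bp away on the plus strand, so the genes converge, and no source states whether the libraries kept strand. DNAJC3 was at 18.9, 15.9 and 21.1 FPKM in control and 13.9, 16.8 and 15.2 FPKM in high-intake livers, which overlap, with a log2 change of -0.26 that did not pass.

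Among the other chaperones none passed in liver. HSPA5 (BiP), the ER's HSP70 and the partner of all its J-domain cochaperones, was at 82.4, 67.3 and 90.6 FPKM in control and at 112, 194 and 110.3 FPKM in high-intake livers. The groups did not overlap, and T2-L stood above the others (log2 change 0.74, SE 0.27, limma adjusted p = 0.153). HSP90B1 had no common direction, with 430.2, 297 and 236 FPKM against 199.7, 507 and 257 FPKM, since both the lowest and the highest liver belonged to the high-intake group. The 12 chaperones had log2 changes from -1.14 to 0.74 with a median of 0.41, and 9 were above 0. The 4 disulfide isomerases, which form and reshuffle the disulfide bonds of cargo, had log2 changes from 0.37 for PDIA4 to 0.51 for TXNDC5. PDIA4 was at 60.8, 85.4 and 81.3 FPKM in control and 86.9, 143 and 74.1 FPKM in high-intake livers, which overlap. TXNDC5 was at 26.4, 22.5 and 22.2 against 36.4, 33.5 and 32.7 FPKM, and its groups did not overlap. PDIA3, the most abundant of them, was at 219, 244 and 165 FPKM in control and 244, 305 and 282 FPKM in high-intake livers, with the nearest geese of the groups almost level.

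All 9 translocon genes had a positive change in liver, where 52.9% of all genes did, with a median of 0.57, and none passed. The largest was that of SEC61A2, at 4.94, 2.42 and 3.05 FPKM in control and 9.90, 9.39 and 7.26 FPKM in high-intake livers (log2 change 1.17, SE 0.24, limma adjusted p = 0.0593). The high-intake livers were all above the controls and nearer to the adipose level of this gene. When 1 model was fitted over all 6 groups, SEC61A2 passed with a limma adjusted p of 0.0221. UGGT2 still passed (0.0129), while DERL1 (0.0859) and SEC23A (0.0531) no longer did. This fit had no block for the goose, although the 3 tissues come from the same geese. SEC61G was at 576, 673 and 605 against 948, 987 and 681 FPKM, with no overlap, and SSR1, with the smallest change of 0.24, was at 172, 173 and 172 against 161, 232 and 224 FPKM. Of the 5 oligosaccharyltransferase subunits, DDOST changed most, from 44.5, 43.8 and 34.7 to 98.4, 95.3 and 61.2 FPKM (log2 change 1.01, SE 0.23, limma adjusted p = 0.0713). DDOST holds the complex together at the membrane. Its groups did not overlap, and neither did those of RPN1 at 102, 118 and 102 against 143, 121 and 139 FPKM (0.32). STT3B, the catalytic subunit that glycosylates sites the translocon-bound complex missed, had the smallest change, 0.22, with 41.1, 45.8 and 39.3 against 42.1, 53.1 and 53.2 FPKM.

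SEC23A rose in the export group. It measured 33.3, 33.1 and 32.7 FPKM in C1-L, C2-L and C3-L and 62.6, 60.02 and 88.5 FPKM in T1-L, T2-L and T3-L. The control livers were nearly identical and every high-intake liver was far above them, with T3-L the highest. The means were 33.0 ± 0.324 and 70.4 ± 15.7 FPKM (SD, n = 3) and the log2 change was 1.05 (SE 0.19, limma adjusted p = 0.047). SEC23A lies on scaffold NW_013185725.1, from 2359620 to 2387865 on the minus strand. All 9 export genes had a positive change in liver, with a median of 0.52, where 52.9% of all genes were above 0, and 7 of them were higher with no overlap between the groups, against 16.1% of all genes. LMAN1 was at 59.0, 77.8 and 67.6 against 136, 122 and 99.0 FPKM (0.79, limma adjusted p = 0.0825). LMAN2, a related lectin of the Golgi and the export sites, had the smallest change, 0.17, with 16.3, 19.2 and 13.9 against 25.2, 17.2 and 14.6 FPKM, which overlap.

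DERL1, a membrane protein of the channel through which ERAD substrates return to the cytosol, rose in liver. It was at 20.1, 26.3 and 18.9 FPKM in C1-L, C2-L and C3-L and at 61.5, 57.8 and 39.5 FPKM in T1-L, T2-L and T3-L. No control liver reached the lowest high-intake liver. The means were 21.8 ± 3.97 and 52.9 ± 11.8 FPKM (SD, n = 3), and the log2 change was 1.23 (SE 0.23, limma adjusted p = 0.0466). DERL1 spans 2719896 to 2735031 on the plus strand of scaffold NW_013185721.1. Of the other 8 ERAD genes none passed, and EDEM3 (0.76, limma adjusted p = 0.0621) and VCP (0.86), the ATPase that extracts substrates, had the next largest changes. EDEM1, the most abundant, was at 114, 126 and 104 FPKM in control and 129, 153 and 116 FPKM in high-intake livers, which overlap. EDEM2, with the lowest change at -0.17, was at 3.83, 3.90 and 2.78 against 3.21, 2.73 and 3.02 FPKM, which overlap as well.

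The 5 stress genes did not share the upward lean in liver. Their median log2 change was -0.01, and none of them was higher in every high-intake liver. ATF4 measured 165, 166 and 152 FPKM in C1-L, C2-L and C3-L and 76.2, 114 and 77.0 FPKM in T1-L, T2-L and T3-L. The control livers were all above the high-intake livers, and the log2 change was -0.87 (SE 0.21, limma adjusted p = 0.0776), short of the threshold. It passed without T2-L, at -1.06 with an adjusted p of 0.0448. ATF4 carries the translational arm of the stress response and activates genes of amino acid supply and redox balance. It lies on scaffold NW_013185696.1, from 5043212 to 5046132 on the plus strand.

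XBP1 was at 29.4, 32.8 and 53.8 FPKM in the control livers and at 27.0, 126 and 19.7 FPKM in the high-intake livers. T2-L alone was above the rest, while T1-L and T3-L were the lowest 2 livers, so the log2 change of 0.13 became -0.67 without T2-L. ERN1 was at 10.5, 9.11 and 10.4 against 6.90, 9.90 and 11.8 FPKM, and ATF6 at 3.23, 4.16 and 3.17 against 5.27, 2.96 and 3.29 FPKM. EIF2AK3 was at 4.95, 3.54 and 5.84 against 4.53, 5.09 and 4.37 FPKM. For these 3 sensors the groups overlapped, and the log2 changes lay between -0.09 and 0.08. JCHAIN, the joining chain of plasma cells, which are secretory cells rich in ER, was at 43.8, 52.4 and 132 FPKM in the control livers and at 236, 302 and 77.9 FPKM in the high-intake livers. The summed level of the 9 plasma and B cell markers was 47.1 to 137 FPKM in control and 79.7 to 312 FPKM in high-intake livers, with 8 of the 9 markers below 6 FPKM in every liver. The summed endothelial level was 52.7 to 75.0 FPKM in control and 32.3 to 39.1 FPKM in high-intake livers, the fibroblast level 217 to 323 against 120.3 to 154 FPKM, with 1 of 6 markers called lower, and the smooth muscle level 27.2 to 88.5 against 15.5 to 16.8 FPKM. None of these 3 sums overlapped between the groups. Most of the fibroblast sum was DCN, at 269, 193 and 280 FPKM in control and 87.1, 79.7 and 121 FPKM in high-intake livers. Of the 6 fibroblast markers 2 had a log2 change above 0. COL3A1, 1 of them, was at 22.6, 12.6 and 18.3 against 45.7, 27.2 and 21.1 FPKM, which overlap. Of the 8 hepatocyte markers 3 had a log2 change above 0 in liver, and none was called. Their median was -0.47, against 0.03 over all genes. ALB and FGG, which were listed at 0 in some livers, are among these 8. The part of these cells in the results was not tested.

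**Figure D3:**
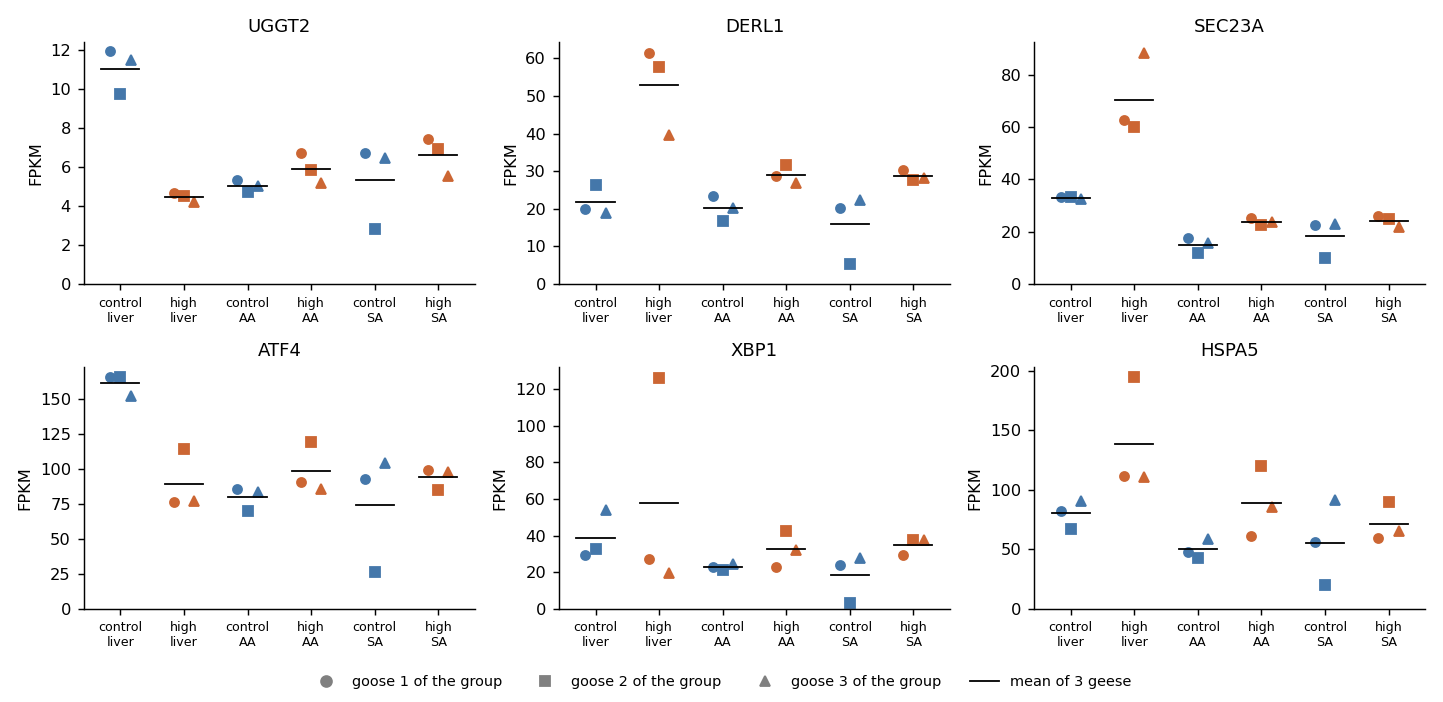
FPKM of UGGT2, DERL1, SEC23A, ATF4, XBP1 and HSPA5 in the 18 libraries, by tissue and feeding group on the x axis. Points are geese (circle, square and triangle for goose 1, 2 and 3 of a group), and bars are the mean of 3 geese. UGGT2 is at 9.75 to 11.9 FPKM in control livers and at 4.20 to 4.69 FPKM in high-intake livers, and the XBP1 value of 126 FPKM belongs to T2-L.

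In AA no member passed (limma), where 0.0878% of all 12526 genes did, all of them higher. At an unadjusted p under 0.05 there were 30 members, against 20.3% of all genes. All 53 members had a log2 change above 0, against 63.2% of all genes, and the median was 0.55 against 0.12 over all genes. With centred libraries 48 of them were above 0, and ERN1, ATF6 and EIF2AK3 were below it. The groups did not overlap for 34 members that were higher (20.1% of all genes) and for none that was lower (7.17%). LMAN1 had the smallest p. It was at 12.6, 11.99 and 12.2 FPKM in control and 24.4, 23.2 and 21.1 FPKM in high-intake AA, close groups far apart, with a log2 change of 0.85 (SE 0.13, limma adjusted p = 0.0888). The AA libraries also differed as wholes, since the sum of FPKM was 221093 to 312874 in control and 340374 to 354824 in high-intake geese and the summed adipocyte markers were at 3088 to 4342 and 5203 to 5979 FPKM. As a share of the summed FPKM, all members were at 0.5317% to 0.5781% in control and 0.5948% to 0.804% in high-intake AA. These shares did not overlap, and neither did those of the disulfide isomerases, translocon and oligosaccharyltransferase genes. The shares of the chaperones (0.0912% to 0.1163% and 0.0989% to 0.1385%) and export genes (0.034% to 0.0431% and 0.0397% to 0.0499%) overlapped. Overlap was also seen for the stress genes, at 0.0484% ± 0.0056 and 0.0442% ± 0.0079, and the ERAD genes, at 0.0562% ± 0.002 and 0.0596% ± 0.0034 (SD, n = 3). The part of the library differences in the results was not tested. Without C1-AA LMAN1 passed with RPN2, another oligosaccharyltransferase subunit. The summed level of the hepatocyte markers in adipose was highest in T3-AA, at 2909 FPKM, and its part in the result was not tested. The medians by role were 0.80 for translocon and for oligosaccharyltransferase genes, 0.79 for disulfide isomerases, 0.55 for export, 0.44 for chaperones, 0.39 for ERAD and 0.08 for stress genes.

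DDOST had the largest change in AA, from 42.3, 31.5 and 29.6 to 69.0, 91.9 and 57.8 FPKM (1.05, SE 0.23, limma adjusted p = 0.112). Its groups did not overlap. UGGT2 was at 5.33, 4.72 and 5.05 FPKM in control and 6.72, 5.85 and 5.17 FPKM in high-intake AA, which overlap (0.19). ATF4 was at 85.5, 69.7 and 83.6 against 90.3, 119 and 85.5 FPKM, which meet at the top of the control group (0.29). ERN1, ATF6 and EIF2AK3 had changes of 0.08, 0.07 and 0.07, with values that overlapped. HSPA5 was at 48.0, 42.9 and 58.8 against 61.3, 120.0 and 85.3 FPKM, where T2-AA was the highest as T2-L was in liver. XBP1 was at 23.1, 21.3 and 24.6 against 22.8, 42.6 and 31.9 FPKM, again with the T2 library on top.

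In SA no member passed either (limma), where 2.13% of all 13264 genes did, 1.18% higher and 0.95% lower. The members with an unadjusted p under 0.05 were 4, XBP1, SEC61B, SEC24D and SEC61G, against 12.8% of all genes. The log2 change was above 0 for 52 members, against 69% of all genes, with a median of 0.64 against 0.21 over all genes. Without C2-SA it was above 0 for 41, against 48.9% of all genes, with a median of 0.19 against -0.01. The sum of FPKM was 107522 to 360181 in control and 316387 to 394709 in high-intake SA. As a share of it, the members were at 0.5232% to 0.6041% and 0.5719% to 0.6912%, which overlap. Only the translocon genes among the roles had shares without overlap, at 0.1474% to 0.2096% against 0.2303% to 0.2793%. SEC61G and SEC61B weigh heavily in this sum, at 472 and 251 of 1102 FPKM in T1-SA and 33.4 and 24.7 of 159 FPKM in C2-SA. Taken singly, 3 of the 9 translocon genes were higher without overlap, SEC61A2, SEC61B and SEC61G. The share without SEC61G and SEC61B is not given here. The part of the library sums in the results was not tested. Since C2-SA was the lowest control library for every member, it did not decide where the groups overlapped upward, and 21 members were higher in every high-intake library than in every control library (13.1% of all genes). Lower in every high-intake library were 0 members, for which each would have had to fall below C2-SA. The share of all genes that did so is not given here. XBP1 was among the 21 higher members, at 23.9, 3.32 and 27.7 FPKM in control and 29.6, 37.6 and 37.8 FPKM in high-intake SA (1.30, SE 0.57, limma adjusted p = 0.277). Its change without C2-SA was 0.42. SEC61B, the beta subunit of the channel, was at 119, 24.7 and 117 against 251, 191 and 215 FPKM (1.61), with a wide gap between the groups even without C2-SA. ATF4 was at 92.5, 25.9 and 104 against 99.1, 84.8 and 97.8 FPKM, which overlap, and its change of 0.56 became -0.07 without C2-SA.

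Members without overlap in the upward direction in all 3 tissues numbered 13 of 53, where 3.68% of all 11378 genes tested in every tissue did the same. They were HYOU1 (an HSP70-like exchange factor of HSPA5), PDIA3, SEC61A2, SEC61G, LMAN1, SEC13 (a subunit of the outer COPII coat), DERL1, EDEM3, VCP and 4 of the 5 oligosaccharyltransferase subunits, RPN1, RPN2, DDOST and STT3A. No stress gene was among them. The tissues come from the same geese, so these are not separate tests.

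Whether the response to feeding differed between tissues was tested with the goose as a block. No member passed for liver minus AA, liver minus SA or AA minus SA (limma), where 0.0723%, 1.72% and 0.0387% of all genes passed. Unadjusted, 7, 1 and 0 members had p under 0.05, against 14%, 11% and 4.84% of all genes. UGGT2 had the lowest difference of log2 changes, at -1.33 for liver minus AA (SE 0.19, limma adjusted p = 0.0861) and -1.47 for liver minus SA (SE 0.46, adjusted p = 0.121). Without the block UGGT2 passed for liver minus AA. ATF4 came next, at -1.16 against AA (SE 0.24, limma adjusted p = 0.131) and -1.43 against SA. The differences against SA lean on goose C2. Without it ATF4 was at -0.78 and UGGT2 at -1.22 against SA, and the members' median for liver minus SA went from -0.17 to 0.22 and for AA minus SA from -0.08 to 0.28. With all geese the median of all genes was near that of the members, at -0.21 for liver minus SA and -0.11 for AA minus SA. The medians of all genes without C2 are not given here, so these shifts cannot be assigned to the members. On the positive side stood SEC61A2 (0.91 against AA) and DERL1 (0.72), neither of which passed.

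Ratios of related members within a library do not depend on how that library was scaled, and FPKM is already per length. The models of UGGT2 and DERL2 are marked as partial, so the level of their ratios is less certain. For this look 6 ratios were formed after the values were known, in 3 tissues, giving 18 comparisons. UGGT1 over UGGT2 was 1.57, 1.86 and 1.35 in C1-L, C2-L and C3-L and 4.78, 5.14 and 6.77 in T1-L, T2-L and T3-L. The ratio was higher in every high-intake liver, 3.48-fold in the geometric mean. In AA the ratio was 2.27, 1.96 and 1.89 against 2.63, 2.94 and 2.90, and in SA 2.14, 1.89 and 1.99 against 2.37, 2.48 and 2.52. It did not overlap between groups in any tissue, at 1.39-fold in AA and 1.23-fold in SA. In SA this held although C2-SA was low for both genes.

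DERL1 over its paralogue DERL2 was 1.45, 2.097 and 1.50 in control and 4.65, 3.80 and 2.61 in high-intake livers, 2.16-fold higher. STT3A, the catalytic subunit that works beside the translocon, over STT3B was 0.325, 0.370 and 0.296 against 0.781, 0.600 and 0.394, 1.73-fold higher. SEC23A over SEC23B was 5.34, 5.48 and 5.24 against 7.30, 6.73 and 12.1, 1.57-fold higher. In each of these the high-intake livers were all above the controls. SEC61A1 over SEC61A2 and SEC24A over SEC24B overlapped between the groups in all 3 tissues. Of the 18 comparisons 7 had no overlap, 4 in liver, 2 in AA and 1 in SA. Each of the 7 had the smallest p the two-sided exact permutation test can give, 0.1, and a BH adjusted p of 0.257 over the 18. This minimum for 3 geese against 3 lies above the threshold, so no ratio could pass and the test cannot decide. UGGT2, DERL1 and SEC23A were already called for feeding in liver. Their liver ratios were formed with these values known and are not separate tests of those calls.

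**Figure D4:**
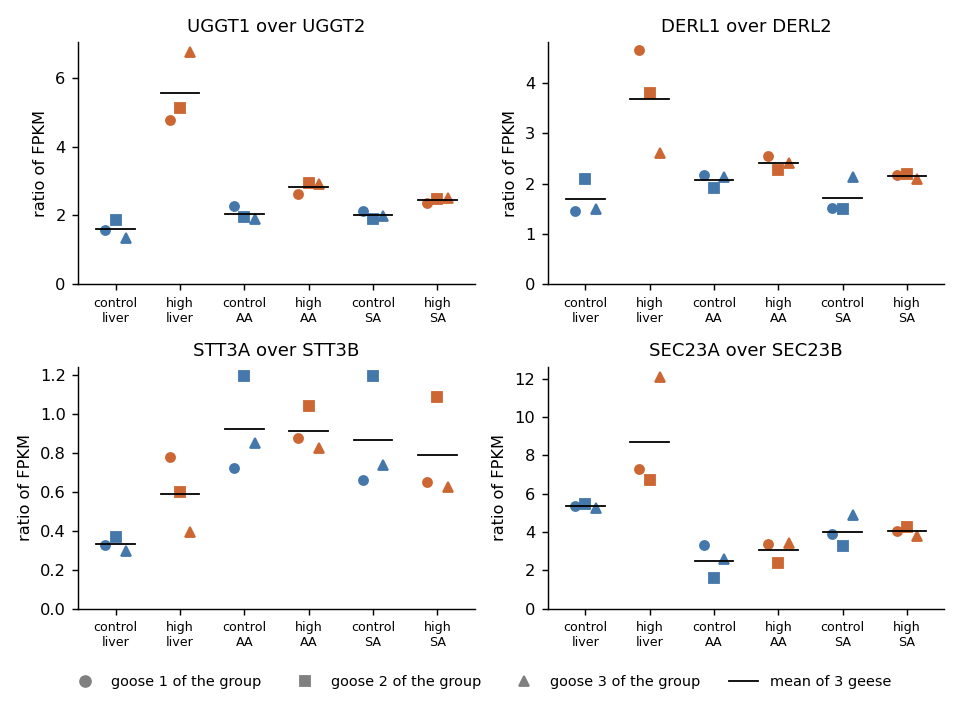
Ratio of the FPKM of related genes within each of the 18 libraries (y axis), by tissue and feeding group, with points for geese and bars for the mean of 3. The UGGT1 over UGGT2 ratio is 1.35 to 1.86 in control livers and 4.78 to 6.77 in high-intake livers, and 1.89 to 2.94 over the adipose libraries.

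Geese of a group were also compared with each other. T2 was the highest of the high-intake geese in all 3 tissues for 10 members, HSPA5, HSP90B1, HYOU1, DNAJC10, PDIA3, PDIA6, SEC61A1, SSR3, SEC13 and EDEM1, which is 18.9% of the members, where the same held for 5.88% of all genes. C3 was the highest control goose in all tissues for HSPA5, DNAJC3, HERPUD1 and XBP1, 7.55% of the members and 3.06% of all genes. HERPUD1 is a stress-induced ERAD scaffold. T1 was the highest throughout for 7 members, 13.2% against 6.85% of all genes, and C1 for 9, 17% against 19.7%. T3 was so for 1 member, 1.89% against 7.36%, and C2 for 0, against 1.95% of all genes. No test was made of these shares. JCHAIN was highest of the 3 in T2-L but in T1-AA and T1-SA in the depots, at 99.7 and 29.2 FPKM.

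Other genes of the same steps were counted from lists, against 52.9%, 63.2% and 69% of all genes with a log2 change above 0 in liver, AA and SA and all-gene medians of 0.03, 0.12 and 0.21. All 14 genes of signal recognition and signal peptide cleavage were above 0 in each tissue, with medians of 0.34, 0.60 and 0.59, and none passed. Of the other folding factors 17 were tested, with 10 above 0 in liver and 17 in each depot. Other genes of export were above 0 for 14 of 17 in liver, 16 of 17 in AA and 17 of 18 in SA, and other ERAD genes for 14, 15 and 19 of 19. Of the other stress response genes, 6 of 14 were above 0 in liver, with a median of -0.20. In AA 9 and in SA 11 of the 14 were above 0, which is near the share of all genes, with medians of 0.37 and 0.53. The SA counts rest on C2-SA. Without it 8 of 14 genes of signal recognition and cleavage, 12 of 17 folding, 12 of 17 export, 11 of 19 ERAD and 8 of 14 stress response genes were above 0, against 48.9% of all genes, with medians between 0.09 and 0.15.

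SDF2, a component of an HSPA5-containing chaperone complex in mammals, was the only list gene to pass for feeding, in SA. It was at 3.25, 0.652 and 2.40 FPKM in the control SA libraries, in the order of goose number, and at 6.83, 5.46 and 6.02 FPKM in the high-intake ones, and the groups did not overlap with or without C2-SA. In this comparison SE and p rest on the spread of all genes at the same level, not on that of SDF2. The log2 change of SDF2 was 1.30 (SE 0.37, limma adjusted p = 0.028). It passed without C1-SA, but not when C2-SA (0.90, adjusted p = 0.229), C3-SA or any 1 high-intake library was left out, where the adjusted p lay between 0.107 and 0.254.

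Of the lncRNA loci in the same series, 9 overlapped a member or lay within 10000 bp of it. Among its most correlated lncRNA and mRNA pairs within that distance, the paper lists a locus with DERL1. No locus was found near DERL1 here, and the reason for this difference was not tested. XLOC_148490 lies 934 bp from HSP90B1 and was at 3.84, 7.74 and 2.89 FPKM in the control livers and 0.069, 8.09 and 5.25 FPKM in the high-intake livers. The liver with almost none, T1-L, is also the liver with the lowest HSP90B1, and T2-L was the highest for both. The other livers did not keep this order, since C1-L, at 430.2 FPKM of HSP90B1, had less of the locus than C2-L, at 297 FPKM. The HSP90B1 model is marked as partial and, on the plus strand, ends ahead of the locus. Whether the locus is part of that transcript was not tested. A link between the 2 was not tested either. XLOC_151055, 2255 bp from SEC61B, was at 0.261, 0.357 and 0.327 FPKM in control and 0.069, 0.027 and 0.047 FPKM in high-intake livers, with no overlap. It was lower without overlap in AA as well, at 0.34, 0.51 and 0.40 against 0.13, 0.15 and 0.063 FPKM. In SA it was at 0.19, 0.48 and 0.58 against 0.091, 0.13 and 0.078 FPKM, again with no overlap. At these levels the precision is unknown, and the share of all lncRNA loci without overlap is not given here. The loci overlapping ERN1, ATF6 and SEC61A2 cannot be told apart from their genes where strand was not kept.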

How the data were processed

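RNA of 18 libraries was depleted of ribosomal RNA and sequenced as pairs by the authors, who aligned reads with TopHat2 and Bowtie2 to the goose AnsCyg v1.0 assembly (NCBI Annotation Release 100) and estimated FPKM with Cufflinks 2.1.1. The labels name Trizol and the study's methods a column kit for extraction. The deposited values were log2(FPKM + 1); the log2 scale was read from the values, since the sources used here do not name it. No counts were used, so depth is unknown and limits the precision to an unknown degree. Strandedness is not given in the sources used here.

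Members and lists were chosen with earlier results of these data known. Symbols came from the annotation deposited with the tables. Each comparison was fitted with limma 3.58.1 in R 4.3.3 (trend of the spread on) on log2(FPKM + 1), over genes with a mean FPKM above 0.1, and p-values were Benjamini-Hochberg adjusted over all genes tested, with a threshold of 0.05. Feeding and tissue comparisons used the libraries of both groups without a block, so the SE and p of tissue comparisons leave out the pairing by goose. Differences of the feeding response between tissues used the goose as a block. In the main fit for feeding in SA limma gave each gene the spread of all genes at its level (infinite prior degrees of freedom). There SE and p do not reflect the gene's own spread between geese. Fits were tested on simulated data. Values per library were given for the most abundant member of each role, the stress genes, members called for feeding and those with the highest and lowest change of each role in liver, and in tissue comparisons the 5 largest changes in each direction were named. Other members and list genes named were chosen after their values were seen. Ratios of related genes were chosen after their values were seen and compared by exact permutation test.

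The 3 tissues of a goose carry its number and come from that goose, which pairs the libraries between tissues. Deviations from the group mean correlated at 0.16, 0.13 and 0.19 between liver and AA of control geese, at 0.53, 0.47 and 0.37 between their depots, and at 0.03, 0.16 and 0.11 between liver and SA of high-intake geese. Nothing in the labels says that replicate numbers link control and high-intake geese. Alternatives were another pseudocount (0.1), no filter or a mean FPKM above 1, centred libraries, no trend, the replicate block, 1 fit over 6 groups and leaving out each library. The fit over 6 groups left out the pairing by goose. The pathway lists in SA without C2-SA and SDF2 without each SA library were added after seeing the data.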

Additional observations from a re-analysis of the deposited data

How the results depend on the processing

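Depth is unknown, each group has 3 geese, and C2-SA was low for every member, so differences in SA are the least certain. For feeding in liver, 1 member passed with no filter on low values and 0 with the replicate block, and 0 to 4 passed when 1 library was left out. In AA 0 to 2 passed when 1 library was left out. The labels do not pair the feeding groups by replicate number. Correlations between equal numbers were -0.05, -0.09 and -0.03 in liver, 0.04, 0.06 and 0.14 in AA and 0.22, 0.35 and 0.08 in SA. In liver, AA and SA 0, 4 and 5 of 6 libraries were closest to their own number, so a link in AA and SA was not excluded. The block left 0 members in AA and SA. Between liver and SA of control geese, 38 passed with centred libraries, 25 with 1 fit over all 6 groups and 2 to 29 when 1 library was left out. Between liver and AA of high-intake geese, 35 passed with centred libraries and 15 to 24 when 1 library was left out. For the feeding response, liver minus AA, 1 passed without the goose as a replicate block.

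Directions turned with centred libraries for ATF6 (-0.068), EIF2AK3 (-0.064) and ERN1 (-0.053) under feeding in AA, for SEC61A2 between liver and AA of high-intake geese (0.038) and for UGGT2 between liver and SA of high-intake geese (0.067). Leaving out 1 library gave log2 changes in liver of -0.12 to 0.21 for ATF6, -0.17 to 0.12 for EIF2AK3, -0.24 to 0.11 for ERN1, -0.46 to 0.21 for HSP90B1, -0.039 to 0.34 for LMAN2 and -0.67 to 0.64 for XBP1. It gave -0.054 to 0.16 for ERN1 in AA. In SA it gave -0.066 to 0.92 for ATF4, -0.00015 to 0.53 for EIF2AK3, -0.15 to 0.64 for ERN1, -0.13 to 0.87 for HSP90B1, -0.020 to 1.06 for HSPA5 and -0.0081 to 0.83 for TXNDC5, where the lowest value of each was without C2-SA. The causes were not tested. Of the log2 changes compared, 737 from other settings and 600 from leaving out 1 library had the same direction and side of the threshold as reported. In the same order, 20 and 44 no longer passed, 2 and 3 newly passed and 5 and 19 turned direction.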
